A study of Mus musculus with 9 samples.

Results

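A set of 10 genes of bone morphogenetic protein (BMP) signalling was followed across mouse colon organoids, which are epithelial cultures started from isolated colonic crypts. They were chosen by name: the ligands Bmp2, Bmp4 and Bmp7, the receptor Bmpr1a, the decoy receptor Bambi, the inhibitory Smads Smad6 and Smad7, and the target genes Id1, Id2 and Id3. Their symbols were matched to the Ensembl identifiers of the deposited table through GENCODE M21, and all 10 were found among 48795 genes. Of the 10, 9 had a mean of 10 or more normalised read counts over the 9 libraries and were tested, among 12741 genes in all. Smad6 did not reach this minimum, and Bmp4 reached it only through the libraries labelled AHR KO.

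RNA-seq was done on organoids of wild-type (WT) mice and of littermates whose floxed Ahr alleles are deleted by a Cre under the Villin promoter, which is active in the intestinal epithelium (AHR KO). AHR, the aryl hydrocarbon receptor, is a transcription factor that ligands activate, and FICZ, a tryptophan photoproduct, is one of its high-affinity ligands. The mice were on a C57BL/6 background. The groups were WT DMSO (n = 2, replicates 2 and 3), WT FICZ (n = 3, replicates 1, 2 and 3), AHR KO DMSO (n = 2, replicates 1 and 3) and AHR KO FICZ (n = 2, replicates 1 and 3), with 5 nM FICZ or its solvent DMSO given for 4 h. All groups were in WENR, a medium with Wnt-3A, EGF, Noggin and Rspondin-1, so the secreted BMP antagonist Noggin was present in every library. Per the methods of the study, the medium also held inhibitors of p38 and of the TGF-beta type I receptor ALK5, together with nicotinamide.

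BMPs are secreted ligands of the TGF-beta superfamily that bring type I and type II receptor kinases together. The receptors phosphorylate Smad1 and Smad5, which enter the nucleus with Smad4 and switch on targets such as the Id genes and, as negative feedback, Smad6, Smad7 and Bambi. In the colon, BMP signalling is strongest towards the crypt top, where it limits stem-cell renewal and favours maturation, and the mesenchyme is a main source of Bmp4 and of BMP antagonists.

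Of the members, 4 lie on chromosomes 2 and 4 (GRCm38, GENCODE M21): Id1 at chr2:152736251-152737410 (+), Bmp2 at chr2:133552159-133562885 (+), Bmp7 at chr2:172868012-172940321 (-) and Id3 at chr4:136143497-136145755 (+). Id2 is at chr12:25093799-25097140 (-), Smad6 at chr9:63953076-64022059 (-), Bmpr1a at chr14:34410734-34503341 (-) and Bmp4 at chr14:46383520-46390669 (-). All 10 are annotated as protein coding, and reads were summed over whole genes, so exons were not told apart.

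The set of RefSeq (GRCm38.p6) promoter sequences used here held 5 of the 10 members. Its windows run from 250 bases before to 50 bases after the annotated start, which need not be the outermost GENCODE start. The windows of Id2, Bmpr1a and Bmp4 are printed because these are the members with a sequence that passed the test in at least 1 comparison. They run 5′ to 3′ on the gene's strand, Id2 at chr12:25096043-25096342 (-), Bmpr1a at chr14:34502497-34502796 (-) and Bmp4 at chr14:46390620-46390919 (-). Capitals mark matches to GCGTG (or CACGC on the other strand), the core of the AHR response element, and to the palindrome GGCGCC, the core of a BMP response element.
Id2: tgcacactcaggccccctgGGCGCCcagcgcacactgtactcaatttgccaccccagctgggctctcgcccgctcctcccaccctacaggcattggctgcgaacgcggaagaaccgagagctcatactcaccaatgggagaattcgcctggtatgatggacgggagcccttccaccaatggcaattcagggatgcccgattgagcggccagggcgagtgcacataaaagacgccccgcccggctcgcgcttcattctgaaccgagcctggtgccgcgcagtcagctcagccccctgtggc
Bmpr1a: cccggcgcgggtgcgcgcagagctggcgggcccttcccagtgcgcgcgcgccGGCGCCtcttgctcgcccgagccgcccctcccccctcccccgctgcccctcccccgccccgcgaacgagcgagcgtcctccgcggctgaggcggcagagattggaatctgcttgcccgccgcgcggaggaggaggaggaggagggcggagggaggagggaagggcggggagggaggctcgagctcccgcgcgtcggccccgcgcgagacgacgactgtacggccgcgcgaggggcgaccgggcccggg
Bmp4: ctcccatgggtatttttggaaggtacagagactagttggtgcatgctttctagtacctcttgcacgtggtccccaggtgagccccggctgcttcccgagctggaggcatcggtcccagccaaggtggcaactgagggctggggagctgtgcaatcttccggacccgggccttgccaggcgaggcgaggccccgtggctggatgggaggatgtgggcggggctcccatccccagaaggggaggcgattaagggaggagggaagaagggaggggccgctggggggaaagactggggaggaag

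Id2 and Bmpr1a each held 1 match to GGCGCC, with its first base at -231 and -198 from the start, and the Bmp4 window held neither motif. The other windows, those of Id3 and Smad6, each held 1 match to GCGTG, with its first base at -8 in Id3 and -249 in Smad6. Among 32851 RefSeq promoter windows of this length, 32.4% held GCGTG and 11.9% held GGCGCC on either strand. A match describes the letters and is not a site of binding. Id1, Smad7, Bmp2, Bmp7 and Bambi had no window in the set of promoter sequences used here.

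Per kilobase of merged exons, and as a mean over the 9 libraries, Id1 had the highest level of the 10 genes at 660.0 normalised counts per kb, followed by Bmpr1a at 550.3. Smad7 (70.7), Bmp2 (61.2) and Id2 (51.7) came next. Below them stood Bmp7 (28.2), Bambi (19.9), Id3 (17.2), Bmp4 (5.19) and Smad6 (2.05). Only from Bmpr1a, whose lowest library was at 500.0 per kb, to Smad7, whose highest was at 83.5, were the ranges of neighbours separate. Every other pair of neighbours had overlapping ranges over the libraries. The type I receptor and 1 target gene were thus far above the other members, and the ligands and feedback inhibitors were low, at 2.05 to 70.7 normalised counts per kb.

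**Figure D1:**
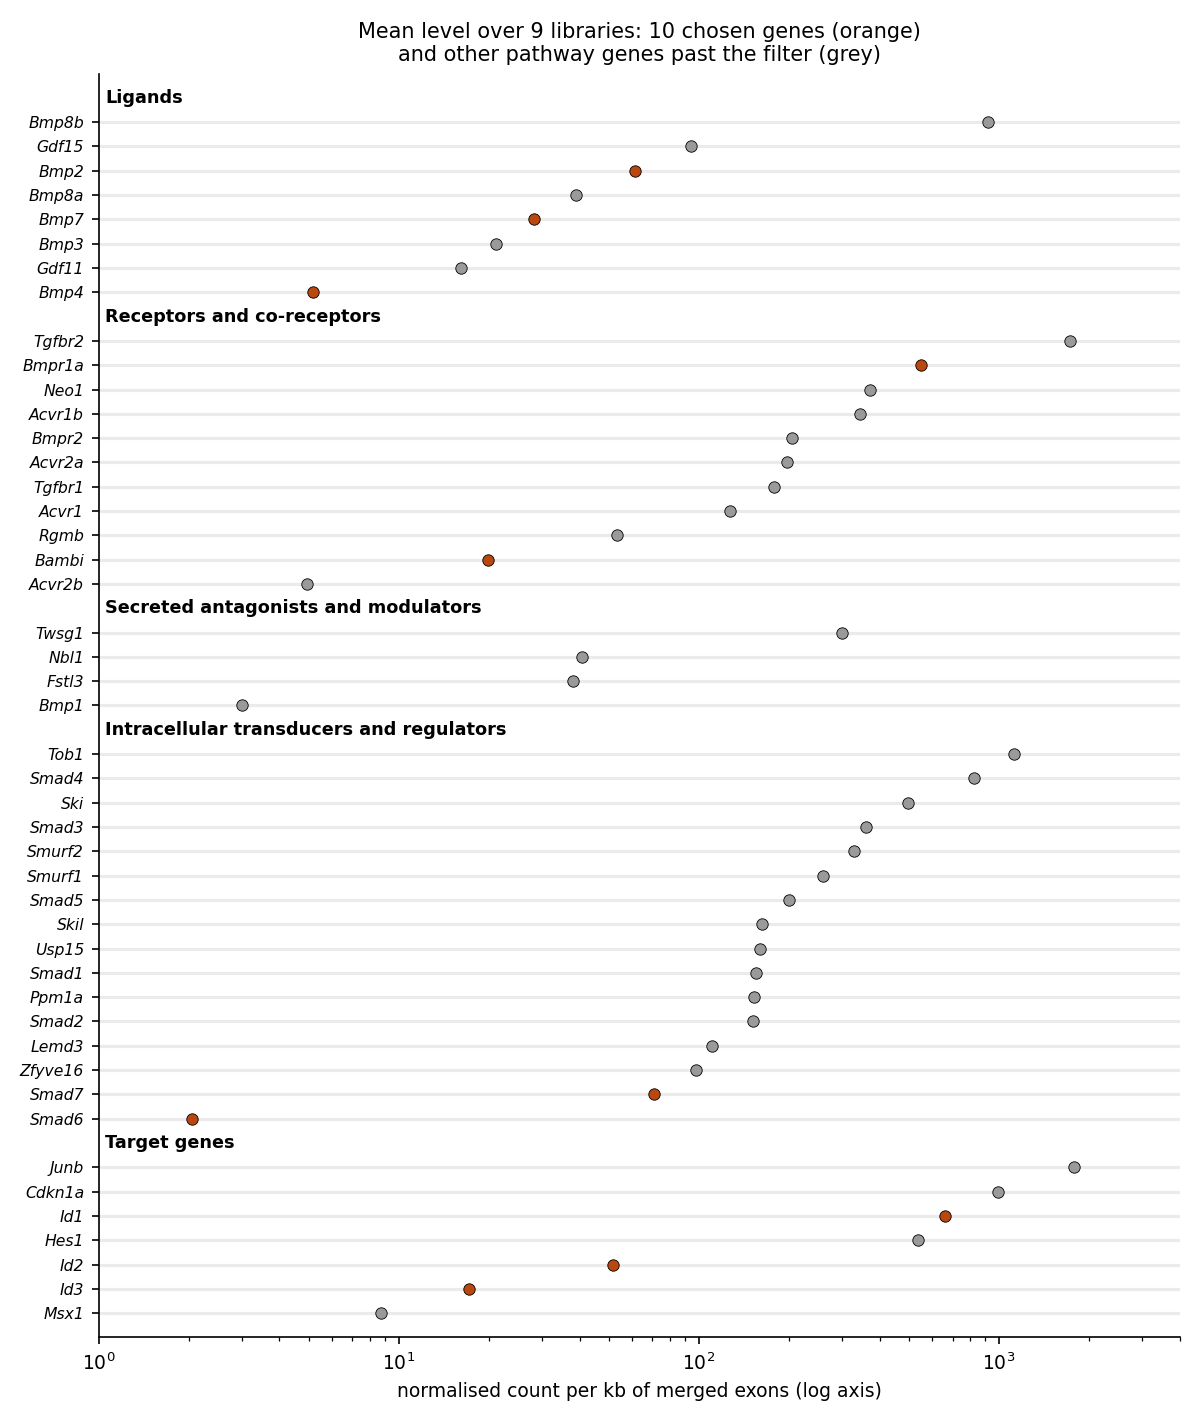
Mean normalised count per kb of merged exons over 9 libraries (log axis) for the 10 chosen genes (orange) and the other listed pathway genes that passed the minimum (grey), grouped by role. Id1 and Bmpr1a stand at 660.0 and 550.3 per kb, and Smad6 is lowest at 2.05.

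The normalised counts of a library summed to between 23177058 and 25033827; these are scaled totals and not sequencing depths. Correlations of log2 values were 0.986 to 0.991 for the 6 pairs of libraries of the same group and 0.964 to 0.984 for the 30 other pairs. Ahr itself was higher, at 1346 to 1443 normalised counts, in the libraries labelled AHR KO than in WT, at 783 to 858. A sum over the whole gene does not show whether an exon is deleted, so every genotype direction here rests on the labels. Cyp1b1, a target of AHR, was at 1078 to 10600 in WT and 25.4 to 222.0 in AHR KO. Cyp1a1, another target, was at 6988 to 7958 in WT FICZ and 100.3 to 138.8 in AHR KO FICZ, against at most 5.84 in any DMSO library. Epithelial Epcam was at 21237 to 35708 over the libraries. It was lower in AHR KO than in WT, with log2 differences of -0.43 under DMSO and -0.46 under FICZ. Of 7 immune genes, Ptprc, Adgre1 and Lyz2 were 0 in all libraries and Cd68, a lysosomal gene of macrophages, was at 475.3 to 712.0. In bulk RNA, fewer cells of a type and less RNA per cell cannot be told apart.

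The first comparison asked which members respond to FICZ in WT organoids. Id2 and Bmp7 rose, by 0.61 and 0.65 on the log2 scale, and Bmpr1a fell by 0.20. These 3 of 9 tested members (2 higher, 1 lower) stand beside 30.8% of all 12741 genes called in this comparison, 15.1% higher and 15.7% lower, so the share of members called was near that of genes at large. Called means a Benjamini-Hochberg adjusted p under 0.05 in limma, fitted to log2(normalised count + 1), a scale that understates the change of low genes. The median log2 difference was 0.18 over the 9 members and -0.01 over all genes tested.

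In AHR KO organoids, FICZ was followed by higher Id1 and Smad7, by 0.32 and 0.55 on the log2 scale, and Bmpr1a fell by 0.25. Again 3 of 9 were called (2 higher, 1 lower), beside 19.7% of all genes, 10.2% higher and 9.48% lower. The median was 0.23 over the members and -0.01 over all genes. Whether the FICZ change differed between genotypes was tested by the interaction, in which the AHR KO change is subtracted from the WT change. It called 0 of the 9 members in limma, beside 0.447% of all genes (0.377% with the higher change in WT, 0.0706% with the lower). An unadjusted p under 0.05 in limma was found for 1 of the 9, Id1, beside 952 of all 12741 genes. A member called in 1 genotype and not in the other is therefore not shown to differ in its response.

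Between genotypes under DMSO, Bambi was lower in the libraries labelled AHR KO, with a log2 difference of -0.87, and Bmp4 was above the threshold in the other direction (2.35). Because Bmp4 was in the test only through its AHR KO libraries, its calls at this minimum are only a description. The 2 of 9 called (1 higher, 1 lower, Bmp4 included) stand beside 9.05% of all genes, 4.21% higher and 4.83% lower. Under FICZ, Id1 was higher in the libraries labelled AHR KO (0.57), Bmp2 and Id2 were lower (-0.78 and -0.79), and the difference of Bmp4 was 2.72. These 4 of 9 (2 higher, 2 lower, Bmp4 included) stand beside 20.0% of all genes, 9.48% higher and 10.5% lower. The comparisons share libraries and are not independent of each other.

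**Figure D2:**
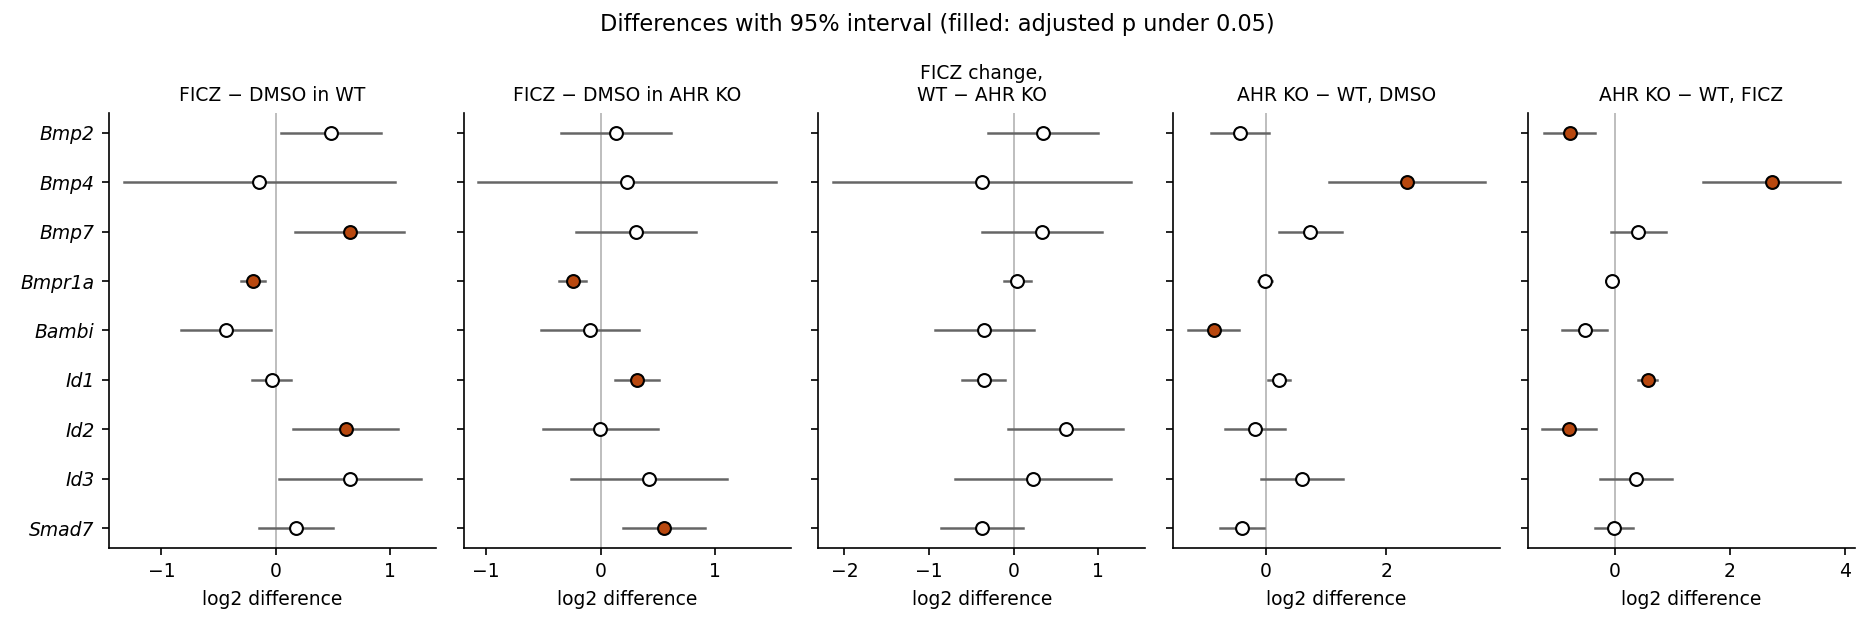
Log2 differences with 95% intervals (lines) of the 9 tested members in the 5 comparisons, filled where the adjusted p was under 0.05. Bmp4, in the test only through its AHR KO libraries, stands at 2.35 under DMSO and 2.72 under FICZ, and no member is filled in the comparison of the FICZ change between genotypes.

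Among the ligands, Bmp4 encodes a BMP that signals through Bmpr1a and Bmpr2. Its normalised counts were 1.7 and 5.3 in WT DMSO and 3.8, 2.3 and 2.2 in WT FICZ. The libraries labelled AHR KO held 25.0 and 15.8 under DMSO and 18.0 and 30.8 under FICZ. The genotypes did not overlap, and the lowest AHR KO library was above the highest WT library under either treatment. The share of all genes whose groups do not overlap was not counted. A lack of overlap, here and for the members below, is therefore only a description of the values. With summed normalised counts taken as reads, the ratio of means was 5.86 under DMSO (41 against 7; exact 95% interval 2.60 to 15.5) and 9.19 under FICZ (49 against 8; 4.32 to 22.5), which covers counting error only. The ratio under DMSO was 3.85 without WT DMSO replicate 2 and 12.1 without WT DMSO replicate 3, while under FICZ it was 6.44 to 11.04 with any 1 library left out. Within each genotype the DMSO and FICZ libraries overlapped. With the minimum of 10 the gene was tested only because its AHR KO libraries lifted its mean to 11.7, so the adjusted p of that test is not given as a result. With no minimum, where Bmp4 did not enter through a group's level, the log2 difference was 2.72 under FICZ (limma, adjusted p = 0.0120) and 2.35 under DMSO (adjusted p = 0.0670, not passing the threshold). Without AHR KO DMSO replicate 1 or AHR KO FICZ replicate 3, Bmp4 was under the minimum and gave no value.

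Because the mesenchyme is a source of Bmp4, the markers of fibroblasts and smooth muscle were read beside it. Lum was at 0 in all 9 libraries, Des in 8 (0.408 in the other) and Pdgfra in 5, with 0.499 at most. The 9 markers other than Pdgfrb (Col1a1, Col1a2, Col3a1, Pdgfra, Dcn, Lum, Acta2, Des and Vim) summed to 1.89 to 5.02 normalised counts in WT and 6.09 to 9.82 in AHR KO, with 6.09 for Vim in 1 AHR KO FICZ library as the highest single value. Pdgfrb, a receptor kinase of mural cells and fibroblasts, moved the other way, at 15.3 to 110.1 over the libraries with log2 differences of -1.60 under DMSO and -1.55 under FICZ (limma, adjusted p = 0.0155 and 0.00533).

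**Figure D3:**
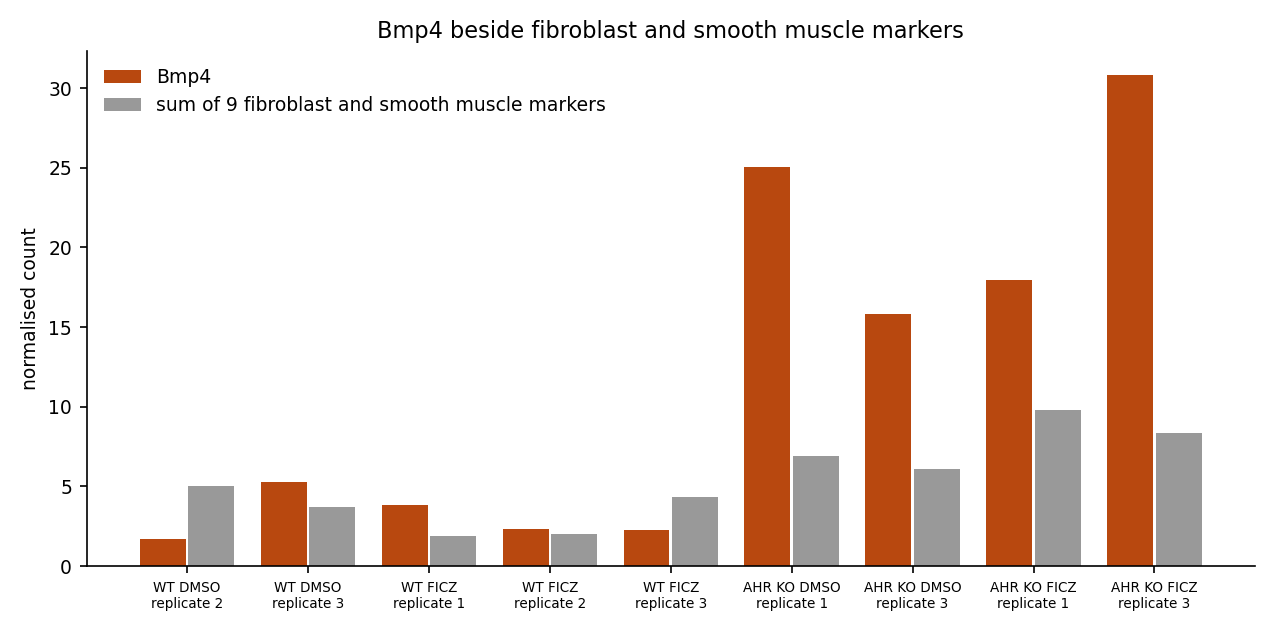
Normalised counts of Bmp4 (orange) and of 9 fibroblast and smooth muscle markers summed (grey, Pdgfrb left out) in each library, not scaled to gene length. Bmp4 is at 15.8 to 30.8 in the AHR KO libraries and 1.7 to 5.3 in WT, and the summed markers stay under 10 throughout.

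Bmp2, an epithelial BMP of the crypt top, was at 214.2 and 203.6 normalised counts in WT DMSO and 284.8, 264.5 and 330.3 in WT FICZ. In AHR KO it was at 172.5 and 138.7 under DMSO and 216.8 and 132.5 under FICZ. All WT FICZ libraries were above all other libraries. Under FICZ it was lower in AHR KO than in WT, with a log2 difference of -0.78 ± 0.20 (SE; limma, adjusted p = 0.0194), a call lost without WT FICZ replicate 3 or AHR KO FICZ replicate 3 (adjusted p up to 0.168). The difference was -0.43 without AHR KO FICZ replicate 3 and -1.13 without AHR KO FICZ replicate 1. The WT change with FICZ, 0.48 (95% interval 0.04 to 0.92), did not pass at an adjusted p of 0.0898.

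Bmp7, whose protein also acts through type I receptors such as Acvr1, was at 60.6 and 82.9 in WT DMSO and 112.4, 88.5 and 139.2 in WT FICZ. It was at 114.2 and 124.5 in AHR KO DMSO and 162.9 and 134.2 in AHR KO FICZ. The WT DMSO libraries were the lowest of the 9. Its rise with FICZ in WT was 0.65 ± 0.21 (SE; limma, adjusted p = 0.0440), and this call held in only 8 of 20 alternatives. It was lost without WT DMSO replicate 2 or WT FICZ replicate 1 or 3, or without either AHR KO DMSO or either AHR KO FICZ library, with adjusted p up to 0.288. It was also lost with no minimum, with quantile normalization, in the fit on only the groups compared and with the GC and length trend removed. The rise was 0.42 without WT DMSO replicate 2, and 0.39 with the trend removed and the replicate block. The genotype difference under DMSO, 0.74 (95% interval 0.22 to 1.26), had an adjusted p of 0.0812.

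Bmpr1a encodes the type I receptor for Bmp2 and Bmp4. It was at 3832 and 3769.7 in WT DMSO and 3226, 3419 and 3272 in WT FICZ. In AHR KO it was at 3844 and 3718 under DMSO and 3198 and 3176 under FICZ. Every FICZ library was below every DMSO library, in both genotypes. The changes were -13.1% in WT (log2 difference -0.20 ± 0.05, adjusted p = 0.0102) and -15.7% in AHR KO (-0.25 ± 0.05, adjusted p = 0.0110; limma, SE). The genotypes differed by -0.01 under DMSO (95% interval -0.12 to 0.11) and -0.05 under FICZ (-0.16 to 0.05). Both falls shrank, to -0.017 and -0.058, when the trend of each difference with GC content and transcript length was removed, and neither was then called (limma, adjusted p = 0.821 and 0.533; over all alternatives 0.00555 to 0.906 and 0.00612 to 0.607). The WT call was also lost without either WT DMSO library, and the AHR KO call without AHR KO DMSO replicate 1.

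Bambi encodes a pseudoreceptor without a kinase domain that blocks signalling by type I receptors. It was at 134.4 and 151.9 in WT DMSO and 96.9, 97.8 and 123.3 in WT FICZ. In AHR KO it was at 69.8 and 87.0 under DMSO and 77.3 and 69.0 under FICZ. All AHR KO libraries were below all WT libraries. The log2 difference under DMSO was -0.87 ± 0.19 (SE; limma, adjusted p = 0.0203), a change of -45.1%, and it was lost when any 1 of the 4 DMSO libraries was left out (adjusted p up to 0.142). Under FICZ the difference was -0.52 (95% interval -0.91 to -0.13) with an adjusted p of 0.0629.

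The inhibitory Smads were unequal in level. Smad6, which acts mainly on BMP receptors, was at 20.4 and 2.1 in WT DMSO, 10.7, 5.4 and 8.3 in WT FICZ, 3.0 and 2.2 in AHR KO DMSO and 3.8 and 3.2 in AHR KO FICZ. The WT DMSO libraries spanned the whole range of the 9, and with a mean of 6.57 the gene was not tested.

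Smad7, which blocks both BMP and TGF-beta receptors, was at 370.4 and 264.7 in WT DMSO and 349.9, 377.7 and 335.7 in WT FICZ. It was at 213.7 and 264.9 in AHR KO DMSO and 350.6 and 348.4 in AHR KO FICZ. The 2 groups labelled AHR KO did not overlap, while the WT groups overlapped. The rise in AHR KO was 0.55 ± 0.16 (SE; limma, adjusted p = 0.0383) and held in 11 of 20 alternatives. It was lost with no minimum, with quantile normalization and without AHR KO DMSO replicate 1, WT FICZ replicate 1 or 3 or either AHR KO FICZ library (adjusted p up to 0.251). With the GC and length trend removed, without and with the replicate block, the rise was 0.26 and was not called (adjusted p = 0.430 at most).

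Id1, a helix-loop-helix inhibitor and an immediate BMP target, was at 725.3 and 634.3 in WT DMSO and 695.5, 631.7 and 660.6 in WT FICZ. It was at 779.8 and 798.1 in AHR KO DMSO and 971.0 and 994.3 in AHR KO FICZ. Every AHR KO library was above every WT library, and AHR KO FICZ was highest. Under FICZ the genotypes differed by 0.57 ± 0.08 on the log2 scale (SE; limma, adjusted p = 0.000634), and this call held in all 20 alternatives. Under DMSO the difference was 0.22 (95% interval 0.03 to 0.41) with an adjusted p of 0.149. FICZ raised Id1 in AHR KO by 0.32 ± 0.08 (adjusted p = 0.0278), a call lost without any 1 of the 4 AHR KO libraries (adjusted p up to 0.154) and with the GC and length trend removed, where the rise was 0.20. The FICZ change in WT was -0.03 (95% interval -0.21 to 0.14), and the interaction was -0.35 (unadjusted p = 0.0118, adjusted p = 0.413).

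Id2, which encodes a related inhibitor, was at 92.5 and 133.4 in WT DMSO and 198.4, 150.6 and 164.9 in WT FICZ. In AHR KO it was at 89.4 and 107.6 under DMSO and 85.0 and 112.6 under FICZ. The WT FICZ libraries were above all the others. The rise with FICZ in WT was 0.61 ± 0.21 (SE; limma, adjusted p = 0.0473), and in AHR KO the difference was -0.0039 (95% interval -0.51 to 0.50). The WT call held in 12 of 20 alternatives. It was lost with no minimum, with quantile normalization, in the fit on only the groups compared, and without WT DMSO replicate 2, WT FICZ replicate 1 or 3 or either AHR KO DMSO library (adjusted p up to 0.340). The rise was 0.35 without WT DMSO replicate 2. Under FICZ, Id2 was lower in AHR KO than in WT, with a log2 difference of -0.79 ± 0.21 (limma, adjusted p = 0.0223), a call lost without WT FICZ replicate 1 or 3 or AHR KO FICZ replicate 1 (adjusted p up to 0.155). The interaction, 0.62, had an adjusted p of 0.723.

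Id3, the third inhibitor of this family in the set, was at 16.5 and 23.0 in WT DMSO and 40.0, 29.0 and 26.2 in WT FICZ. It was at 28.0 and 32.5 in AHR KO DMSO and 42.0 and 39.4 in AHR KO FICZ. WT DMSO was the lowest group and AHR KO FICZ the only one with both libraries near 40. No comparison passed. The FICZ difference in WT was 0.65 (95% interval 0.03 to 1.27, adjusted p = 0.102). Between genotypes, Id3 was higher in AHR KO by 0.60 under DMSO and 0.37 under FICZ, neither called. The calls of the 3 Id genes differed, but no test compared these genes with each other. Id1 and Id2 differed between genotypes in opposite directions under FICZ.

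**Figure D4:**
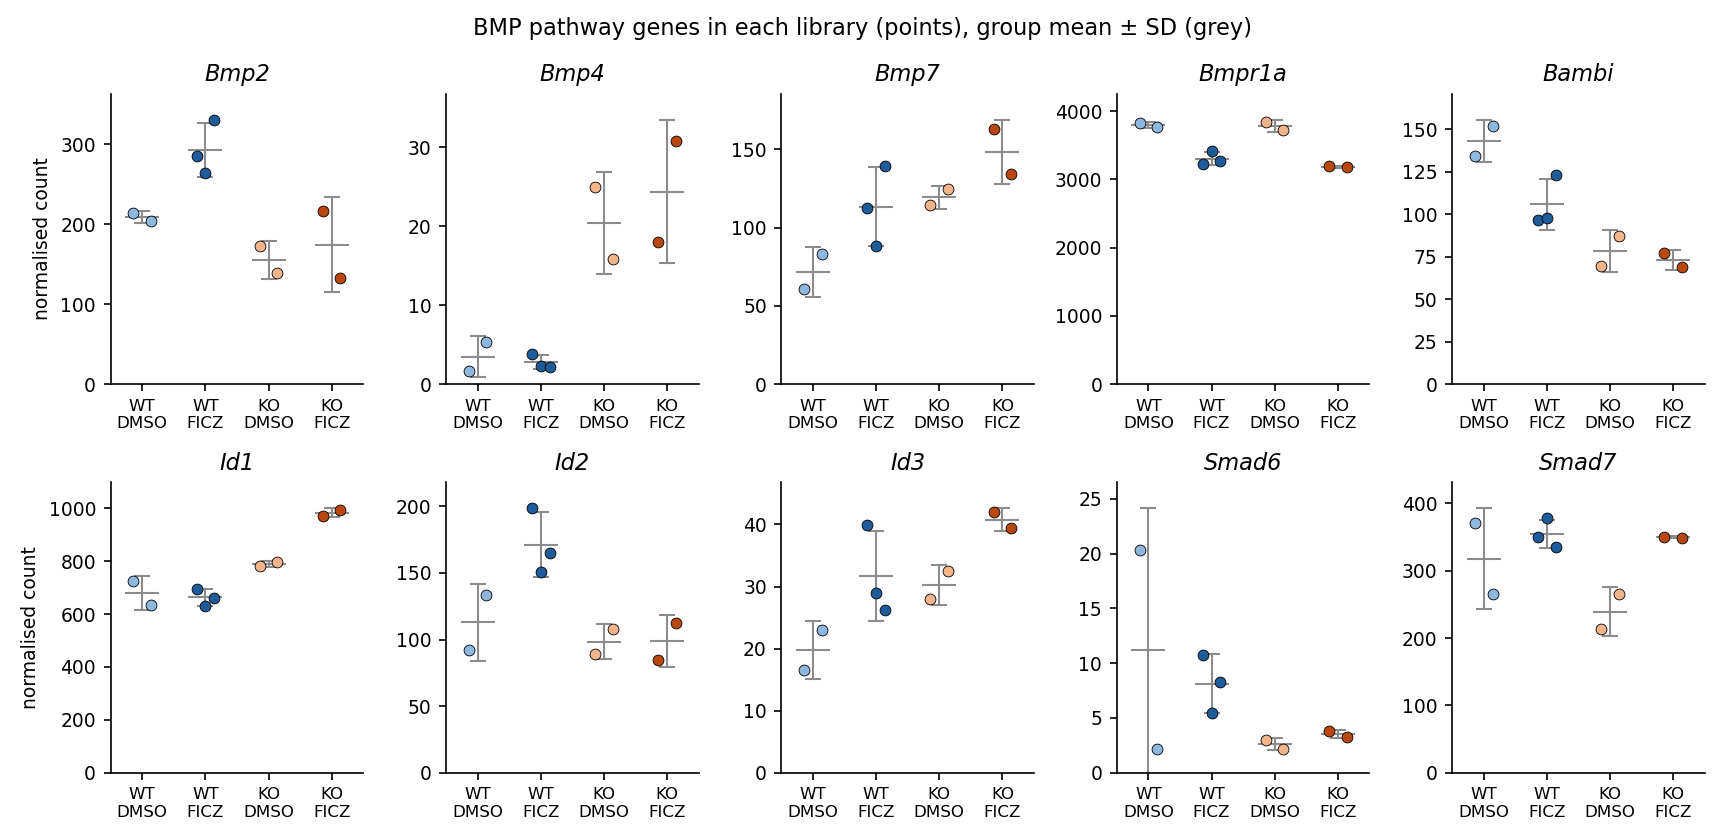
Normalised counts of the 10 genes in each library (points) with group mean ± SD (grey, cut at 0), KO standing for AHR KO. Each FICZ library is below each DMSO library for Bmpr1a, and the AHR KO libraries stand apart from WT for Bmp4, Bambi and Id1. The share of all genes with such a separation was not counted.

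The calls differed in how they held across 20 alternative settings, of which 9 left out 1 library each. The higher Id1 in AHR KO under FICZ stayed called in all 20 alternatives and the lower Bmp2 in 18. Whether Bmp4 was tested at all depended on its AHR KO libraries in all but 1 alternative, the one with no minimum, so its 2 calls are not counted as stable. The Bmp7 rise was called in 8 of 20. The 12 calls, Bmp4 included, gave 234 values over the alternatives, and 178 of these stayed called, 56 did not, and 0 changed sign. Each of the 2 Bmp4 calls gave 17 of these values, and 12 under DMSO and 17 under FICZ stayed called. Because these values are in it, the tally is only a description.

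**Figure D5:**
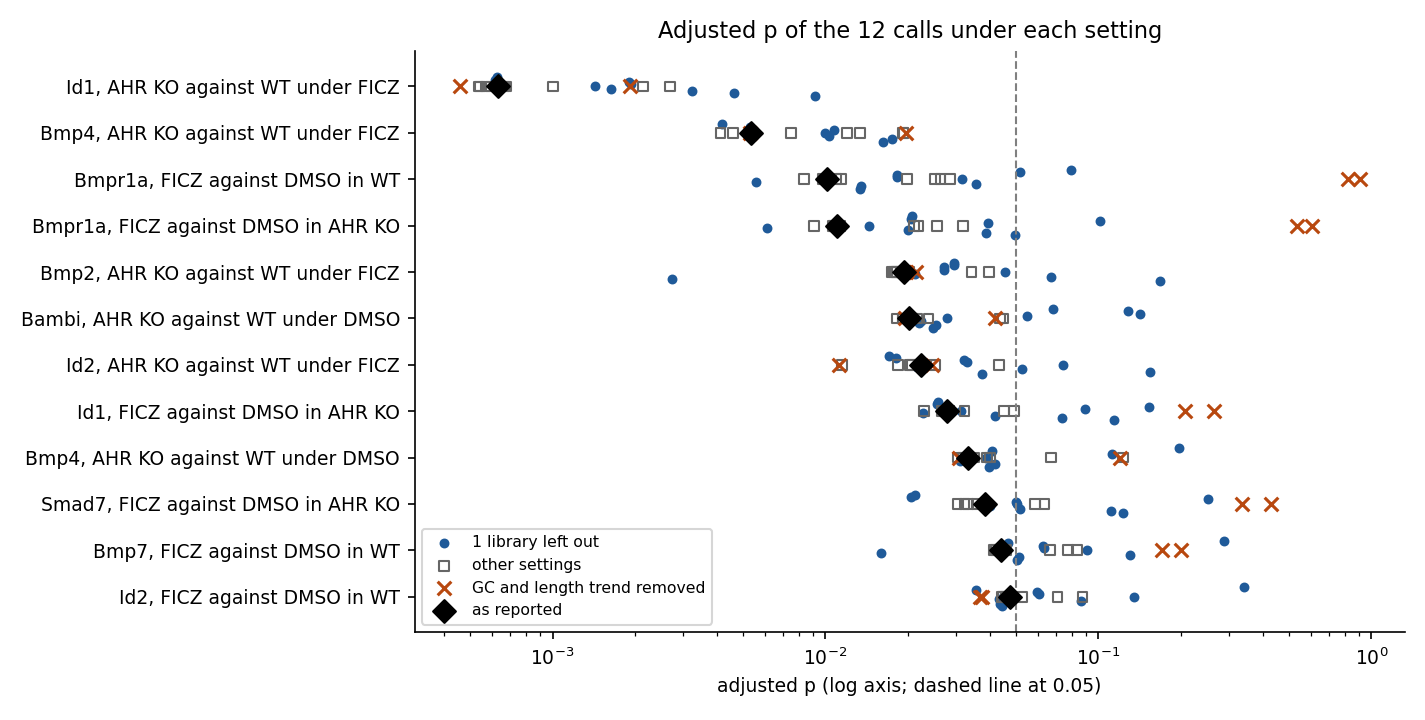
Adjusted p (log axis) of the 12 calls as reported (diamonds), with 1 library left out (dots), with the GC and length trend removed (crosses) and under the other settings (squares); the dashed line is at 0.05. The crosses of both Bmpr1a falls lie far to the right, up to 0.906, and all points for Id1 in AHR KO against WT under FICZ lie left of the line. The points for Bmp4 exist only where its AHR KO libraries lifted it over the minimum, or with no minimum.

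GC content, taken over the transcripts of a gene and weighted by their length, was not used to choose the genes. It ran from 43.2% in Bmpr1a, 44.0% in Bambi and 45.9% in Id2 to 60.5% in Smad6. The other 6 members lay between 52.5% and 58.6%. Of the 6 FICZ calls in both genotypes, only that of Id2 stayed called with the GC and length trend removed. The genotype calls of Bambi, Id1, Bmp2 and Id2 stayed called with this trend removed.

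The rest of the pathway was read through 69 further genes, listed by role, of which 36 passed the minimum. Under FICZ, 7 of the 36 were called in WT (4 higher, 3 lower) and 5 in AHR KO (2 higher, 3 lower), and 0 in the interaction in limma, where 5 had an unadjusted p under 0.05. Between genotypes, 4 were called under DMSO (2 higher, 2 lower) and 8 under FICZ (3 higher, 5 lower). Beside the shares of all genes given above, the counts of calls were near or below those of genes at large, and the medians of the 36 lay between -0.03 and 0.02. In the interaction, 952 of all 12741 genes had an unadjusted p under 0.05 in limma, a lower share than the 5 of 36.

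Of 12 further ligands, 5 passed, and the highest mean among the other 7 was 1.34. Gdf15, a stress-induced and distant member of the superfamily that signals through GFRAL, rose with FICZ by 1.19 in WT and 0.94 in AHR KO, and was higher in AHR KO under DMSO by 0.65. Gdf11 fell by 0.77 in WT, a call lost without either WT DMSO library (limma, adjusted p up to 0.0806). Bmp8b, at a mean of 921.6 normalised counts per kb the highest ligand listed, was higher in AHR KO under FICZ by 0.36, and Bmp3, which antagonises other BMPs, by 0.59. The Bmp8b call and that of Gdf15 in WT held in 20 of 20 alternatives, that of Bmp3 in 16, and those of Gdf15 in AHR KO and between genotypes in 17 and 15. Over the alternatives, the Gdf15 rise was as low as 0.74 in WT and 0.48 in AHR KO. The AHR KO rise was not called with the GC and length trend removed. Bmp8a and Bmp8b are close paralogues, and how reads were shared between them is not known here.

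Of 14 receptors and co-receptors, 9 passed. Tgfbr2, the TGF-beta type II receptor, was higher in AHR KO by 0.43 under DMSO and 0.47 under FICZ, and both calls held in all 20 alternatives. Acvr1b, an activin type I receptor, rose with FICZ in WT by 0.37 and was lower in AHR KO than in WT under FICZ (-0.30), as was the activin type II receptor Acvr2a (-0.31). Tgfbr1 fell with FICZ in AHR KO by 0.21, a call that held in 7 of 20 alternatives. The Acvr1b calls held in 18 and 19 of 20 and that of Acvr2a in 12. With the GC and length trend removed, the Acvr1b rise in WT was not called, and over the alternatives it was as low as 0.20. The Acvr2a difference under FICZ ranged from -0.44 to -0.18 over the alternatives. Bmpr2, the type II partner of Bmpr1a, was at 3474 to 3859 and was called in no comparison.

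Of 15 secreted antagonists and modulators, 4 passed and none was called in any comparison by limma, with at most 2 at an unadjusted p under 0.05. Nog, the transcript of Noggin, was at 2.19 to 8.21 normalised counts over the libraries, in medium that supplied the protein. Per kb its mean was 2.62, against 300.6 for Twsg1, which encodes a BMP-binding modulator.

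Of 15 intracellular transducers and regulators, 14 passed. Smad2, which carries TGF-beta and activin signals, fell with FICZ by 0.67 in WT and 0.52 in AHR KO. Smad4, the partner of all receptor Smads, was lower in AHR KO under DMSO (-0.26) and FICZ (-0.21), and the first call, at an adjusted p of 0.04995, held in 8 of 20 alternatives. Tob1, an antiproliferative inhibitor of Smad signalling, rose with FICZ in WT by 0.40 and was lower in AHR KO under FICZ (-0.60). Usp15, a deubiquitinase of Smads and their receptors, fell by 0.29 and 0.26 in WT and AHR KO, and Ski, a Smad co-repressor, was lower in AHR KO under FICZ (-0.23). The calls of Tob1 and of Smad2 in WT held in all 20 alternatives, those of Usp15 in 18 (WT) and 15 (AHR KO), and those of Ski and of Smad4 under FICZ in 9. Neither Usp15 fall was called with the GC and length trend removed. Over the alternatives, the Usp15 differences shrank to as little as -0.11 in WT and -0.064 in AHR KO. Smad1 and Smad5, which carry the BMP signal, were called in no comparison.

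Of 13 further target genes, 4 passed. Junb, an AP-1 subunit induced by TGF-beta and BMP and by many other stimuli, rose with FICZ by 0.61 in WT and 0.68 in AHR KO, and was lower in AHR KO under DMSO (-0.20). The last of these held in 10 of 20 alternatives. With the GC and length trend removed, the rises shrank to as little as 0.11 and 0.19 and were not called (adjusted p = 0.181 and 0.114 at most). The other 3 that passed, Hes1, Cdkn1a and Msx1, were called in no comparison.

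Markers of maturation and of the epithelium moved beside these results. The counts below stand beside 4.83% of all genes lower in AHR KO under DMSO, and 10.5% lower and 9.48% higher under FICZ. With FICZ against DMSO, 15.1% of all genes were higher in WT and 10.2% in AHR KO. Of 5 tested mature colonocyte markers, 3 were lower in AHR KO under DMSO and 5 under FICZ, and their 7 listed genes summed to 2952 to 4362 normalised counts in WT and 940.2 to 1448 in AHR KO. Of 5 tested goblet cell markers, 3 were lower under each treatment, with sums of 3682 to 5896 in WT and 1305 to 1803 in AHR KO. Of 11 general epithelial markers, 5 were lower in AHR KO under DMSO, and 5 were lower and 1 higher under FICZ. With FICZ, 4 of these 11 were higher in WT (Elf3, Cdx1, Cdx2 and Lgals4, by 0.24 to 0.80 on the log2 scale), and 1, Cldn7, was higher in AHR KO (0.32), while the colonocyte and goblet markers gave no FICZ call. The 5 enteroendocrine genes (2 tested), 7 immune genes (1 tested) and 4 endothelial genes (0 tested) gave no call, and the endothelial sum was at most 5.27. The immune sum, nearly all of it Cd68, was 476.3 to 594.2 in WT and AHR KO DMSO and WT FICZ and 545.1 to 713.0 in AHR KO FICZ. The part of these marker differences in the levels of Bmp4, Bambi, Id1, Id2, Bmp2, Bmp7, Smad7 and Bmpr1a was not tested.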

How the data were processed

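RNA from 9 libraries of colon organoids was measured by the study as stranded, ribosome-depleted RNA-seq. The values deposited by the authors are normalised read counts per Ensembl gene, a signal of 0 or more with decimals. Per the submitters' processing notes, RSEM 1.2.31, STAR 2.5.2a, DESeq2 1.16.1 and GRCm38 are named without their roles, and the study's methods name another counter, summarizeOverlaps, so the steps behind this table are not given in the sources used here.

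Values were analysed as log2(value + 1) for 12741 genes with a mean of 10 or more. No count model was used in the tests of differences. Only the exact intervals of the Bmp4 ratios took summed values as read counts. A model of 4 groups was fitted to all 9 libraries with limma 3.58.1 (R 4.3.3, eBayes with trend), with 5 two-sided contrasts and Benjamini-Hochberg adjustment over all genes tested (threshold 0.05). The script was checked on simulated data. GENCODE M21 gave symbols for 48435 identifiers, exon lengths and GC content (99.71% of the genes tested). All 10 members and the genes called in the 69 listed pathway genes were named, and marker lists were read by counts. Members and lists were chosen with earlier results of these data known. Replicate numbers follow the sample descriptions, since the titles number the samples differently. The study's methods describe the organoids as biological replicates. The labels do not say which number is which mouse, and p-values measure the spread between these libraries. Alternatives changed the pseudocount (0.1 or 10), the minimum (none or 100), the scaling, the libraries fitted, the variance model, the replicate block, GC and length, and left out each library in turn.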

Additional observations from a re-analysis of the deposited data

How the results depend on the processing

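The number of members called with FICZ in WT, 3 as reported, was 1 with no minimum, with quantile normalization and with the GC and length trend removed, without and with the replicate block, and 2 in the fit on only the groups compared. Leaving out 1 library gave 0 to 3. With FICZ in AHR KO, the 3 calls became 2 with no minimum and with quantile normalization, 0 with the GC and length trend removed, without and with the replicate block, and 0 to 3 with 1 library left out. For AHR KO against WT under DMSO, 2 became 1 with no minimum, with a minimum of 100, with the replicate block and with the block and the GC and length trend removed, and 0 to 3 with 1 library left out. Under FICZ the 4 calls became 3 with a minimum of 100, which Bmp4 did not reach, and 2 to 4 with 1 library left out. The interaction stayed at 0 in its 19 alternatives. Calls over all genes moved with the setting too, with FICZ in WT from 3928 genes to 3412 with the replicate block. The shares of all genes called under the other settings are not given here. These counts are therefore not read as a trait of the members. The cause of these moves was not tested.

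Of the 33 member values that were not called, 4 of 636 alternatives gave a call and 28 changed sign, all without a call. With quantile normalization, log2 differences became 0.43 for Bmp4 with FICZ in WT, 0.27 for the Bmp4 interaction, and 0.032 and 0.0076 for Bmpr1a between genotypes under DMSO and FICZ. With the GC and length trend removed they became -0.11 for Smad7 in WT (-0.047 with the replicate block), 0.033 for Bambi and 0.16 for Id2 in AHR KO, alike with the block. The replicate block gave 0.016 for Bmpr1a between genotypes under DMSO, and 0.080 for Smad7 under FICZ (0.076 with the trend removed). With 1 library left out, the FICZ difference in WT ranged from -0.76 to 0.47 for Bmp4, -0.13 to 0.062 for Id1 and -0.065 to 0.42 for Smad7, and in AHR KO from -0.25 to 0.064 for Bambi, -0.22 to 0.48 for Bmp2, -0.084 to 0.60 for Bmp4 and -0.20 to 0.20 for Id2. The interaction ranged from -0.0036 to 0.70 for Bmp2 and -0.99 to 0.24 for Bmp4. Between genotypes, the difference ranged from -0.032 to 0.016 for Bmpr1a and -0.44 to 0.084 for Id2 under DMSO, and from -0.057 to 0.028 for Smad7 under FICZ.

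Same-numbered libraries of a genotype shared little beyond their number, with correlations of their deviations from the group means of 0.035 to 0.050. The replicate block lowered the calls under DMSO from 1153 to 1052 genes. With groups of 2 or 3, leaving out a library can leave 1 in an arm, which is then assumed to vary like the other groups. Bmp4 fell under the minimum in 3 alternatives, and for FICZ in WT also in the fit on only the groups compared, and has no value there. Low levels limit Bmp4, Smad6 and Id3 most.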
